A study of Mus musculus with 6 samples.

Results

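The Cyp2c and Cyp3a genes described here were 10 mouse cytochrome P450 genes, Cyp2c29, Cyp2c55, Cyp2c65, Cyp2c66, Cyp2c68, Cyp2c69, Cyp3a11, Cyp3a13, Cyp3a25 and Cyp3a44. They were picked by name and chosen by their counts in the comparison below, whose results were already known, so their own differences between the groups are given as descriptions, without p-values. Of the 28752 genes in the count table, 9 were these genes, found by gene symbol. Cyp2c69 was not analysed here.

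The study asked how circEZH2_005, a circular RNA made from exons of Ezh2, acts on the crypt stem cells of the mouse small intestine under hypoxia and reoxygenation (H/R), a culture model of ischemia and reperfusion. In the paper's methods, Lgr5+ stem cells from Lgr5-GFP mice were grown as organoids. The sequenced samples are titled intestinal crypt stem cells, and the paper calls them intestinal crypt cells. They were infected for 72 h with adenovirus and placed in 2% oxygen for 4 h before reoxygenation. The groups were vector (3 samples, genotype labelled WT) and circEZH2_005 adenovirus (3 samples). All 6 samples had been through H/R, so no comparison with untreated cells could be made. RNA was selected with oligo(dT), which leaves out circular RNA without a poly(A) tail, and the labels give no age for the Lgr5-GFP mice.

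Each sample held between 71506487 and 79919893 gene counts, and 3 counts corresponded to between 0.0377 and 0.0419 CPM (counts after all library totals are made equal). Genes with enough counts numbered 18348 and were tested with edgeR's quasi-likelihood test, a gene being called when its Benjamini-Hochberg adjusted p was under 0.05. Unless another scale is named, fold changes come from this fit to counts and can differ from ratios of mean FPKM. Nothing in the labels says that the 3 samples of a group came from separate mice, so p-values measure the spread between these samples. The libraries labelled as crypt stem cells held transcripts of several lineages. Lgr5 stood at 1.39 FPKM (fragments scaled to transcript length and library size) in vector samples on average, and the stem cell gene Olfm4 at 550 FPKM, beside 1750 FPKM for the enterocyte gene Fabp1 and 2740 FPKM for the Paneth cell gene Defa24. The T cell gene Cd8a stood at 7.04 FPKM in vector samples. How T cell transcripts came into these libraries was not tested. In such bulk samples, fewer cells of a type and less RNA per cell cannot be told apart.

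Cytochromes P450 of the CYP2C and CYP3A subfamilies are heme monooxygenases of the endoplasmic reticulum that receive electrons from P450 oxidoreductase (Por). CYP3A enzymes oxidise many drugs, steroids and bile acids, and CYP2C enzymes also turn arachidonic acid into epoxides and hydroxylated products. In liver and in the enterocytes of the small intestine, many of these genes are switched on by the xenobiotic receptors PXR (Nr1i2) and CAR (Nr1i3), which bind DNA with RXR, and by the nuclear receptor HNF4A.

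The genes lie in tandem arrays. In GRCm38, the Cyp2c cluster runs from Cyp2c52-ps to Cyp2c70 at chr19:38976647-40187333. Cyp2c55 (chr19:39007019-39042693), Cyp2c65 (chr19:39061015-39093944), Cyp2c66 (chr19:39113898-39187072) and Cyp2c29 (chr19:39269405-39330713) follow each other on the plus strand. Cyp2c68 (chr19:39688834-39741054) lies further on, on the minus strand. On the minus strand of chromosome 5, Cyp3a44 (chr5:145773983-145805874), Cyp3a11 (chr5:145854426-145879964) and Cyp3a25 (chr5:145977194-146009618) share a cluster. Cyp3a13 (chr5:137892932-137921619) lies alone, away from that cluster.

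Upstream sequences are shown for 4 genes to set a pair of near copies, Cyp2c65 and Cyp2c66, beside the genes of each subfamily with the largest fold change, Cyp2c55 and Cyp3a11. Each stretch is the 150 bases before the RefSeq transcription start in GRCm38.p6, written 5′ to 3′ on the strand of the gene, at chr19:39006869-39007018, chr19:39060856-39061005, chr19:39113748-39113897 and chr5:145879855-145880004 (minus strand) in the order printed. Capitals mark the letters TATAAA, the HNF4-type motif CAAAGTCCA and, in Cyp3a11, TGAACT, which is the nuclear receptor half-site AGTTCA on the other strand. TATAAA also occurs outside the printed stretch, 162 bases before the start in Cyp2c65 and 234 bases before it in Cyp3a11.
Cyp2c55: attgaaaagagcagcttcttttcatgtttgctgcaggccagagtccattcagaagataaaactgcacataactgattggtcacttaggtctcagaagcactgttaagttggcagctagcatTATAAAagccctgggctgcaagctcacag
Cyp2c65: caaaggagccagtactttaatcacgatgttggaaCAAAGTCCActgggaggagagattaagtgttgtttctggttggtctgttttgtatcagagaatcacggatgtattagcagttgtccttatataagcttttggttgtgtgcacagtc
Cyp2c66: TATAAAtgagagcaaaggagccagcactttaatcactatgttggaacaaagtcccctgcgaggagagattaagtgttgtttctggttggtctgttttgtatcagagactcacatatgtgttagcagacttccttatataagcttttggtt
Cyp3a11: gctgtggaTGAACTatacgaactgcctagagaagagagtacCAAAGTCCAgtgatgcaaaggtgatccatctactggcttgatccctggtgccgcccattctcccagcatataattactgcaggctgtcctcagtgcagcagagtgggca

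The Cyp2c65 and Cyp2c66 upstream sequences were identical at 87.4% of the columns, gaps inside included, in an alignment of the 250 bases before each start, and Cyp2c66 differed from Cyp2c65 inside the HNF4-type motif by A9C, counted from 1 at the 5′ end of the motif. On both strands of windows from 250 bases before to 50 after the start, CAAAGTCCA occurred in 4 of the 10 genes (Cyp2c65, Cyp2c68, Cyp2c69 and Cyp3a11) and in 0.475% of 32851 mouse promoters. AGGTCA, another half-site, occurred in 4 of the 10 genes (Cyp2c29, Cyp3a11, Cyp3a25 and Cyp3a44) and in 16.3% of promoters. AGTTCA occurred in Cyp2c69 and Cyp3a11 and in 14.0% of promoters, and TATAAA in 7 of the 10 genes and in 13.6% of promoters. TGANTCA, the letters of the AP-1 site, occurred in Cyp3a13 alone among the 10 genes and in 7.81% of promoters. Genes that share a motif here can share it by descent, as Cyp2c68 and Cyp2c69 do, whose upstream sequences were 93.9% identical by the same measure. CAAAGTCCA was found both in Cyp3a11, with a higher mean under circEZH2_005, and in Cyp2c68, with a lower one.

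As close paralogs, these genes could exchange reads. Coding sequences were 96.3% identical between Cyp2c65 and Cyp2c66, 94.9% between Cyp3a11 and Cyp3a44 and 96.5% between Cyp2c68 and Cyp2c69, while Cyp2c55 was at most 77.4% identical to any other of the genes. Of all windows of 150 bases in a gene's transcripts, about the length of 1 read, none was shared with another gene for Cyp2c29, Cyp2c55, Cyp3a11, Cyp3a13 and Cyp3a44. The shared windows came to 4.55% in Cyp2c65 (all with Cyp2c66), 4.16% in Cyp2c66 (all with Cyp2c65), 8.83% in Cyp2c68 (all with Cyp2c40) and 0.586% in Cyp3a25 (all with Cyp3a59). With windows of 50 bases the share reached 43.3% in Cyp2c68, 26.8% in Cyp3a25 and 26.5% in Cyp3a44, against 0 in Cyp3a13 and 1.13% in Cyp2c55. How reads with several matches were counted was not given in the sources used here, so the values of Cyp2c65, Cyp2c66, Cyp2c68, Cyp3a25 and Cyp3a44 are less certain than those of Cyp2c55 and Cyp3a13. Cyp3a13 and Cyp2c29 each overlap an annotated gene on the same strand (Gm15502 and Cyp2c53-ps).

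Levels per transcript length differed widely among the genes. By mean FPKM over the 6 samples, the order was Cyp3a13 (152), Cyp2c65 (47.6), Cyp3a25 (25.2), Cyp2c68 (20.4), Cyp3a11 (18.8), Cyp2c55 (5.98), Cyp2c66 (4.34), Cyp3a44 (0.194) and Cyp2c29 (0.0779). The order differed between the groups for 2 sets of neighbours. In vector samples Cyp2c68 (23.4 FPKM ± 2.48, SD, n = 3) stood above Cyp3a25 (9.68 ± 0.696) and Cyp3a11 (6.85 ± 1.7), and in circEZH2_005 samples it stood below both of them (17.3 ± 4.39 against 40.6 ± 10.4 and 30.7 ± 3.65). Cyp2c55 stood below Cyp2c66 in vector samples (0.616 ± 0.0261 against 2.22 ± 0.313 FPKM) and above it in circEZH2_005 samples (11.3 ± 2.09 against 6.46 ± 0.95 FPKM), so the order by overall mean does not hold for them in the vector group. Cyp3a25 and Cyp3a11 did not differ beyond their spread in the circEZH2_005 group, and neither did Cyp3a44 and Cyp2c29, at the bottom of the order, in the vector group (0.15 and 0.0767 FPKM).

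**Figure D1:**
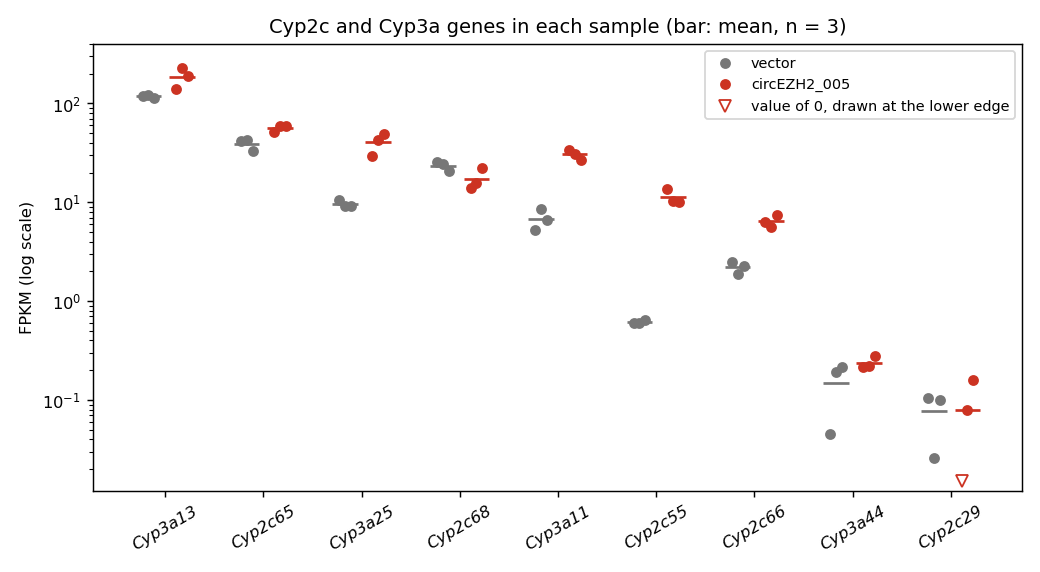
FPKM (log scale) of the 9 Cyp2c and Cyp3a genes in each of the 3 vector (grey) and 3 circEZH2_005 (red) samples, in order of mean level, with horizontal bars for the group means and an open triangle at the lower edge for a value of 0. Cyp2c55, Cyp2c66, Cyp3a11, Cyp3a25, Cyp2c65 and Cyp3a13 show no overlap between the groups, while Cyp2c68, Cyp2c29 and Cyp3a44 do.

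Against vector, 6 of the 9 genes had all 3 circEZH2_005 samples above all 3 vector samples, and none had them all below, with a median log2 fold change of 0.75 over the 9 genes against 0.00 over all genes tested. Among all genes tested, 16.4% showed such a separation upward and 14.2% downward. The adjusted p was under 0.05, upward, for 4 of the 9 (Cyp2c55, Cyp2c66, Cyp3a11 and Cyp3a25) and downward for none, against 2.69% of all genes upward and 0.986% downward. At an unadjusted p under 0.05 the counts were 6 upward and 0 downward, as with DESeq2. Of all 18348 genes tested, 2562 were upward and 1784 downward at that unadjusted p. Over all genes, DESeq2 called 1588 upward and 701 downward. Since the genes were chosen with this comparison known, nothing is read from these counts. Without vector sample 1 or without vector sample 3, the number called was 2 (Cyp2c55 and Cyp3a11), and without circEZH2_005 sample 1 it was 6.

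Cyp2c55, an oxidase of arachidonic acid known from colon and liver, had the largest fold change. Its counts were 96, 96 and 109 in the vector samples and 2342, 1822 and 1695 in the circEZH2_005 samples. The vector samples lay close together, and the lowest circEZH2_005 sample was far above the highest of them. The level went from 0.616 FPKM ± 0.0261 to 11.3 FPKM ± 2.09 (SD of 3 samples). The ratio of these mean FPKM values was 18.4. In the edgeR fit on counts, the change was 19.4-fold, or 4.27 on the log2 scale (SE 0.15). Leaving out any one sample moved the log2 value only between 4.17 and 4.33. On log2(FPKM + 1), which shrinks differences of low genes, it was 2.92.

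Cyp2c65 and Cyp2c66, the neighbours downstream of Cyp2c55 and both expressed mainly in the gut, differed from each other in level and in size of change. Cyp2c65 counts were 6324, 6550 and 5344 with vector and 8431, 10100 and 9585 with circEZH2_005. Its level was 38.9 FPKM ± 5.3 and 56.3 FPKM ± 4.33, a log2 fold change of 0.63 (SE 0.14). The groups were separate, but the gap between them was narrow beside that of Cyp2c55. Cyp2c66 counts were 388, 294 and 377 with vector and 1055, 968 and 1228 with circEZH2_005. Its level was 2.22 FPKM ± 0.313 and 6.46 FPKM ± 0.95, a log2 fold change of 1.62 (SE 0.18). Thus every circEZH2_005 sample held more than the highest vector sample for both genes, and the less abundant copy had the larger fold change.

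Cyp2c68 went the other way on average, with overlap. Its counts were 3475, 3321 and 2998 with vector and 2063, 2415 and 3252 with circEZH2_005. The third circEZH2_005 sample lay within the vector range and the other 2 below it. The log2 fold change was -0.33 (SE 0.20), and it lay between -0.58 and -0.17 when single samples were left out. Cyp2c29, an epoxygenase of liver, was barely present. It had 26, 7 and 27 counts with vector and 0, 22 and 41 with circEZH2_005, and its log2 fold change of 0.11 (SE 1.17) had the opposite sign in 4 of 11 alternative settings.

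Cyp3a11, the mouse CYP3A gene best known as a PXR target, had 2135, 3515 and 2850 counts with vector and 14878, 14030 and 11599 with circEZH2_005. All circEZH2_005 samples were well above all vector samples. The level was 6.85 FPKM ± 1.7 and 30.7 FPKM ± 3.65, a log2 fold change of 2.25 (SE 0.17), or 4.76-fold. Cyp3a25, expressed in liver and small intestine, had 1737, 1543 and 1634 counts with vector and 5181, 8037 and 8723 with circEZH2_005. The vector samples were tightly grouped, and the lowest circEZH2_005 sample, the first, was clearly above them. Its log2 fold change was 2.17 (SE 0.22), or 4.5-fold.

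Cyp3a13, the main CYP3A gene of mouse intestine, had 27628, 28781 and 28428 counts with vector and 35233, 59940 and 47168 with circEZH2_005. The level was 118 FPKM ± 4.1 and 185 FPKM ± 43.9, a log2 fold change of 0.75 (SE 0.20). The groups were separate, and the circEZH2_005 samples were spread much more widely than the vector samples. Cyp3a44, known from female liver, was low, with 8, 30 and 36 counts with vector and 36, 40 and 46 with circEZH2_005. Its lowest circEZH2_005 count equalled the highest vector count, and the log2 fold change was 0.74 (SE 0.57).

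Summed over the 9 genes, the level was 203, 209 and 186 FPKM in the vector samples and 289, 392 and 364 FPKM in the circEZH2_005 samples. The Cyp2c sum was 65.2 FPKM ± 7.6 and 91.5 FPKM ± 6.78, and the Cyp3a sum 134 FPKM ± 5.13 and 257 FPKM ± 50.1. The gene with the largest fold change was not the gene that added most. Cyp3a13 added 67.4 FPKM, Cyp3a25 31.0, Cyp3a11 23.8, Cyp2c65 17.4 and Cyp2c55 10.7. Within the sum, Cyp3a13 remained the largest item at 59.1% ± 1.74 with vector and 52.7% ± 4.87 with circEZH2_005. Cyp3a11 made up 3.42% ± 0.778 and 9.06% ± 2.47, Cyp3a25 4.86% ± 0.38 and 11.6% ± 1.82, and Cyp2c68 11.7% ± 0.764 and 5.0% ± 1.07.

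**Figure D2:**
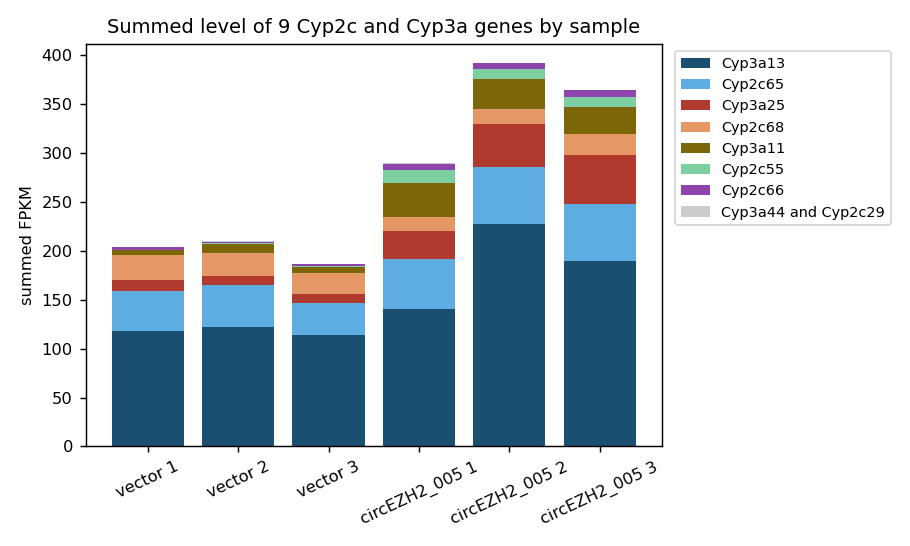
Summed FPKM of the 9 Cyp2c and Cyp3a genes in each sample, with 1 colour per gene stacked from the most abundant, Cyp3a13, upward. The sums run from 186 to 209 FPKM in vector samples and from 289 to 392 FPKM in circEZH2_005 samples, and the bands of Cyp3a25 and Cyp3a11 are visibly wider in the circEZH2_005 group.

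The rest of the subfamilies in the table was nearly silent. Of 7 further Cyp2c and Cyp3a genes, 5 were tested and edgeR called none in either direction, with 0 also at an unadjusted p under 0.05 and 0 with DESeq2. Cyp2c23, known as an epoxygenase of kidney, had 58, 100 and 76 counts with vector and 52, 43 and 44 with circEZH2_005, groups that did not overlap, with a log2 difference of -0.75 (SE 0.32, edgeR adjusted p = 0.212). Cyp3a59, the gene that shares sequence with Cyp3a25, had 38, 24 and 31 counts and 33, 55 and 48 counts (log2 difference 0.55, edgeR adjusted p = 0.481). Cyp2c70, which in liver makes muricholic acids, had 11, 11 and 15 counts with vector and 0, 4 and 4 with circEZH2_005 (log2 difference -2.13, edgeR adjusted p = 0.236). Among all genes tested, 14.2% had groups separate downward, as Cyp2c23 and Cyp2c70 did. At these counts, smaller differences were not detectable.

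Cyp2c40, which shares windows with Cyp2c68, had 60, 0 and 25 counts with vector and none with circEZH2_005. It was not tested with all 6 samples, and it was called lower when vector sample 2, the one at 0, was left out. A count of 0 at this depth allows up to 3 counts, or up to 0.0419 CPM. Of the 6 Cyp2c genes with a mean under 0.1 FPKM (Cyp2c29, Cyp2c40, Cyp2c50, Cyp2c52-ps, Cyp2c67 and Cyp2c70), all 6 were at 0 in circEZH2_005 sample 1, against 2, 2 and 0 of them in the vector samples and 2 and 2 in the other circEZH2_005 samples.

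Genes next to the clusters had medians near 0. Within 500 kb of the Cyp2c cluster, 14 other genes were tested, with log2 fold changes from -0.70 to 0.40 and a median of -0.02, and 1 of them, Pdlim1, was called (0.40, SE 0.09, edgeR adjusted p = 0.049). Around the Cyp3a cluster, 19 were tested, with a median of -0.03 and 1 call, Smurf1 (0.60, SE 0.08, edgeR adjusted p = 0.0207). Around Cyp3a13, 46 were tested, with a median of 0.11, a range from -1.87 to 1.66 and 1 call, Tsc22d4 (0.49, SE 0.10, edgeR adjusted p = 0.0426). These 3 genes were named after their values were seen. Over all genes tested, edgeR called 2.69% higher and 0.986% lower.

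Por, the electron donor of these enzymes, was called higher with circEZH2_005. Its counts were 7816, 6837 and 7955 with vector and 11773, 13576 and 10384 with circEZH2_005, so that the groups did not overlap. Among all genes tested, 16.4% were separate in this direction. The level went from 23.1 FPKM ± 1.6 to 34.2 FPKM ± 3.64 (SD, n = 3), a log2 fold change of 0.66 (SE 0.12, edgeR adjusted p = 0.0325). It was the only one of 24 receptors and partners called, with none called lower, and the median over the list was 0.11. Over all genes tested, 2.69% were called higher, so nothing about the list is read from 1 call. The list was chosen with earlier results of these data known, so its calls and p-values are descriptions. The call was lost without vector sample 1, without vector sample 3, without circEZH2_005 sample 2 or without circEZH2_005 sample 3.

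The receptors themselves were not called. PXR (Nr1i2) stood at 28.1 and 32.9 FPKM, a log2 difference of 0.32 (SE 0.09, edgeR adjusted p = 0.0943). CAR (Nr1i3) stood at 4.87 and 4.13 FPKM, a difference of -0.14 (SE 0.18, edgeR adjusted p = 0.698). For RXR alpha (Rxra) the log2 difference was 0.17 (edgeR adjusted p = 0.346), and for Hnf4a, at 187 and 203 FPKM, it was 0.21 (edgeR adjusted p = 0.171). Transcripts of both xenobiotic receptors were thus present in all samples, with PXR more abundant per transcript length than CAR. On this list, DESeq2 called 2 genes higher (Por and Ppard) and 1 lower (Cebpa).

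Among 16 genes outside the families that are known targets of PXR or CAR, edgeR called 2 higher and none lower, with a median log2 fold change of 0.33. Over all genes tested, it called 2.69% higher and 0.986% lower. The list was chosen with earlier results of these data known, so these calls and p-values are descriptions. Cyp2b10, the classical CAR target of mouse liver, had 1430, 1401 and 1324 counts with vector and 4345, 9237 and 7516 with circEZH2_005. The level went from 8.08 FPKM ± 0.584 to 38.4 FPKM ± 12.9, a log2 fold change of 2.36 (SE 0.28, edgeR adjusted p = 0.0138). Every circEZH2_005 sample was above every vector sample, the first least so. Ces2a, a carboxylesterase that hydrolyses esters including drugs, had 2700, 2947 and 3604 counts with vector and 10622, 14456 and 12433 with circEZH2_005. The level went from 16.0 FPKM ± 1.87 to 61.3 FPKM ± 8.0, a log2 fold change of 2.03 (SE 0.15, edgeR adjusted p = 0.00249). Both had fold changes of the size of those of Cyp3a11 and Cyp3a25. The call of Ces2a held whichever sample was left out, and that of Cyp2b10 was lost without vector sample 1 or without vector sample 3.

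The other 14 targets did not pass. Abcb1a, a drug efflux pump, stood at 15.2 and 30.7 FPKM (log2 difference 1.11, SE 0.28, edgeR adjusted p = 0.07), and the glutathione transferase gene Gstm1 at 20.8 and 28.7 FPKM (0.56, edgeR adjusted p = 0.105). Papss2, which makes the sulfate donor for sulfation, stood at 291 and 166 FPKM (-0.72, edgeR adjusted p = 0.0595), and Aldh1a1 at 25.1 and 12.9 FPKM (-0.85, edgeR adjusted p = 0.253). At an unadjusted p under 0.05, 7 of the 16 were higher and 3 lower, against 2562 and 1784 of all 18348 genes tested. DESeq2 called 5 higher (Cyp2b10, Ces2a, Abcb1a, Gstm1 and Gstm3) and 1 lower (Papss2), against 1588 and 701 over all genes. Of the non-passing genes, Abcb1a, Gstm1, Papss2 and Aldh1a1 were picked as examples after their values were seen.

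**Figure D3:**
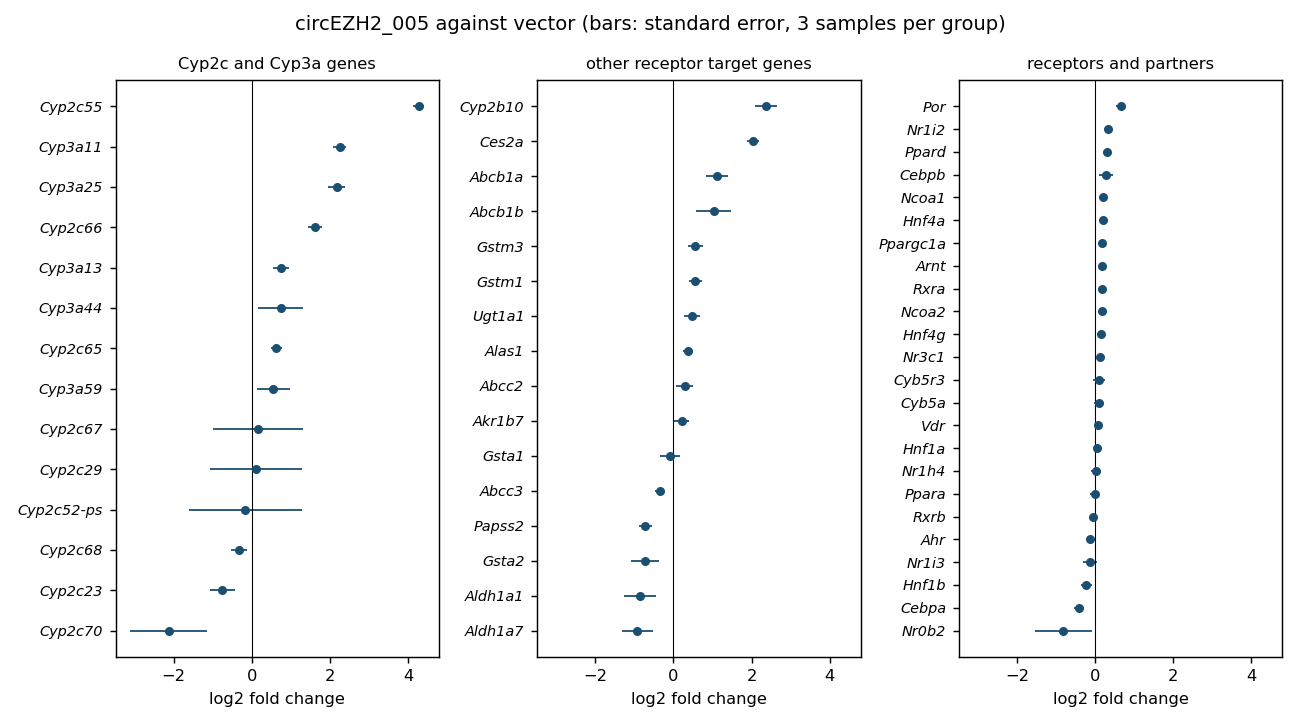
Log2 fold change of circEZH2_005 against vector with its standard error, for the tested Cyp2c and Cyp3a genes (left), 16 other known targets of the receptors (middle) and 24 receptors and partners (right). Cyp2c55 is farthest to the right at 4.27, Cyp2b10 (2.36) and Ces2a (2.03) lie near Cyp3a11 (2.25) and Cyp3a25 (2.17), and all receptors and partners but Por, Nr0b2 and Cebpa lie between -0.22 and 0.32.

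In the arachidonic acid pathway outside the Cyp2c genes, edgeR called 1 of 15 tested genes higher, against 2.69% of all genes. None was called lower, and the median log2 fold change was -0.06. This list, too, was chosen with earlier results known, so its call and p-values are descriptions. The gene that rose was Cyp4f16, of the family of fatty acid omega-hydroxylases, with 6221, 6910 and 6653 counts with vector and 10160, 16893 and 15230 with circEZH2_005 (26.5 and 53.1 FPKM, log2 fold change 1.11, SE 0.20, edgeR adjusted p = 0.0349). The samples of the groups did not overlap, and 16.4% of all genes tested were separate upward. The call was lost without any one of vector samples 1 and 3 and circEZH2_005 samples 2 and 3. The epoxide hydrolases that act on the epoxides made by CYP2C enzymes gave small differences, 0.14 for Ephx2 (edgeR adjusted p = 0.692) and -0.09 for Ephx1 (edgeR adjusted p = 0.792).

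Some markers of cell types also differed between the groups, and their part in these results was not tested. The marker lists were chosen with earlier results of these data known, so their calls and p-values are descriptions. Of 10 enterocyte genes, 1 rose, Apoa4 (log2 fold change 0.91, edgeR adjusted p = 0.0279), none fell and the median was 0.72, while their summed level ran from 16900 to 19400 CPM with vector and from 17200 to 32400 CPM with circEZH2_005. Of 8 crypt stem cell genes, 2 fell, Lgr5 (-0.88, edgeR adjusted p = 0.0434) and Smoc2 (-0.81, edgeR adjusted p = 0.0203), and the summed level ran from 2050 to 2890 CPM and from 1400 to 2030 CPM. Of 9 leukocyte genes, 1 rose, Cd74 (1.27, edgeR adjusted p = 0.0181), the median was 1.29, and the summed level ran from 704 to 999 CPM and from 1750 to 2240 CPM. Cd74 alone made up most of that sum, at 685 CPM with vector and 1650 CPM with circEZH2_005 on average. Ptprc, the leukocyte marker CD45, stood at 2.25 and 6.85 FPKM (edgeR adjusted p = 0.0756). The T cell genes Cd3e (1.86 and 6.53 FPKM), Cd3g (3.28 and 12.3) and Cd8a (7.04 and 23.0) did not overlap between the groups. EdgeR called none of them. In all, 5 of the 9 leukocyte genes had every circEZH2_005 sample above every vector sample, against 16.4% of all genes tested. Cd79a, Lyz2, Cd68 and Itgam overlapped. The cells behind these transcripts were not identified. At an unadjusted p under 0.05, 7 enterocyte genes were higher, 4 stem cell genes lower and 5 leukocyte genes higher. DESeq2 called 6 enterocyte genes higher, 4 stem cell genes lower and 4 leukocyte genes higher, with no call in the opposite direction on these 3 lists. Over all genes, edgeR called 2.69% higher and 0.986% lower. The unadjusted p gave 2562 higher and 1784 lower of 18348 tested, and DESeq2 called 1588 higher and 701 lower. The sums did not overlap between the groups for the stem cell and leukocyte genes, and overlapped for the enterocyte genes.

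Liver and colon, the other organs where these P450 genes are known to be used, gave little signal by their own markers. The liver gene Alb had 0, 0 and 26 counts with vector and 11, 12 and 0 with circEZH2_005, Ahsg had 7 counts in 1 vector sample and none elsewhere, and none of 5 hepatocyte genes tested was called by edgeR or DESeq2, also at an unadjusted p under 0.05. The hepatocyte sum, from 2170 to 2350 CPM and from 1650 to 2170 CPM, was nearly all Cps1, which small intestine also expresses. Of the colon genes, 1 of 4 tested rose, Prdm1 (log2 fold change 2.16, edgeR adjusted p = 0.013), against 2.69% of all genes called higher. The colon sum ran from 16.0 to 18.1 CPM and from 33.9 to 42.3 CPM. Fabp6, an ileal bile acid binding protein, stood at 155 and 422 FPKM on average (edgeR adjusted p = 0.21), with the sum of 3 ileal genes from 24.5 to 159 CPM and from 163 to 416 CPM.

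Set against Vil1, an enterocyte structural gene that stood at 457 and 631 FPKM (log2 difference 0.57, edgeR adjusted p = 0.124), every P450 gene had a smaller ratio of circEZH2_005 to vector than on the library scale. This scaling was chosen after the enterocyte values were seen, and dividing by a gene with a higher mean in the circEZH2_005 group lowers each ratio by construction. Per 1000 Vil1 counts of the same sample, Cyp2c55 had 0.714, 0.758 and 0.815 counts with vector and 15.5, 7.35 and 9.23 with circEZH2_005, a ratio of means of 14.0. Cyp3a11 had a ratio of 3.36, Cyp3a25 of 3.06 and Cyp2c66 of 2.19, with no overlap between the groups. Cyp3a13, at 205, 227 and 213 counts per 1000 with vector and 233, 242 and 257 with circEZH2_005, had a ratio of 1.13, and Cyp2c65, whose groups were separate on the library scale, one of 1.07 with overlap. Cyp2c68, at 25.8, 26.2 and 22.4 counts per 1000 with vector and 13.6, 9.75 and 17.7 with circEZH2_005, had a ratio of 0.552, without overlap on this scale. The gain of separation in Cyp2c68 and its loss in Cyp2c65 both go with the lowering of all ratios, and nothing is read from them.

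**Figure D4:**
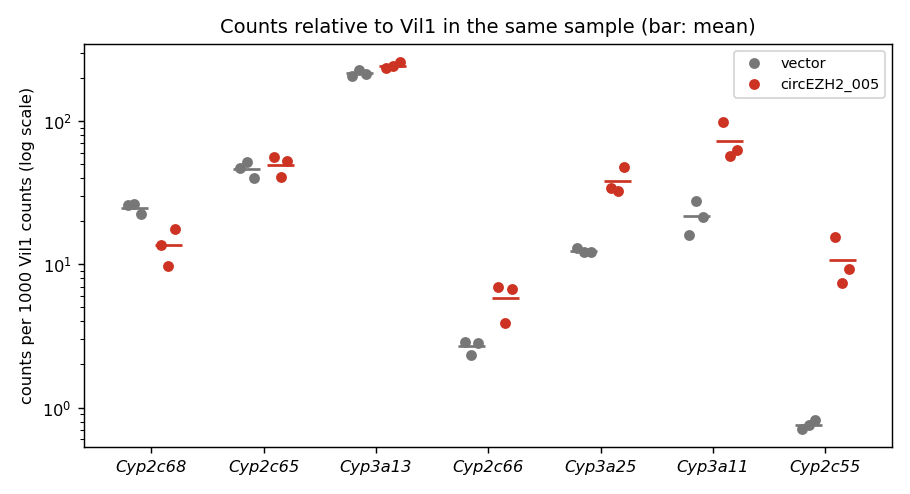
Counts of 7 Cyp2c and Cyp3a genes per 1000 Vil1 counts of the same sample (log scale), in order of the ratio of circEZH2_005 (red) to vector (grey), with horizontal bars for the group means of 3 samples. Cyp2c68 lies lower with circEZH2_005 (0.552 times the vector mean), Cyp2c65 and Cyp3a13 lie close to the vector values (1.07 and 1.13 times), and Cyp2c55 lies 14.0 times higher.

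Over the 6 samples, the genes whose log2 CPM followed Cyp2c55 most closely, of 11595 genes searched, were Pik3c3 (Pearson r = 0.9961), Cdc14a (0.9959) and Prag1 (0.9931). For Cyp3a13, the most abundant of the genes, they were Gsdmd (0.9985), Gm8909 (0.9974) and Pepd (0.9972). These values describe 6 points that hold 2 groups, share their libraries' depth and were the highest of a long search. The lists of the 2 genes had no gene in common.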

How the data were processed

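Poly(A)-selected RNA of 6 samples titled intestinal crypt stem cells was sequenced by the authors in paired-end mode. The deposited table holds counts and FPKM per gene and sample. The submitters' processing notes name cutadapt 1.9, HISAT2 2.0.4, StringTie 1.3.4d, DESeq2 and the mm10 build, without their roles, and the handling of reads with several matches is not given in the sources used here. Sample columns named NC were taken as vector, the single control group. Here, the deposited counts were scaled by TMM, filtered with filterByExpr and tested with edgeR 4.0.16 (R 4.3.3), with Benjamini-Hochberg adjustment over all genes tested. Alternatives were DESeq2 1.42.0, limma 3.58.1 on log2(FPKM + 1) or log2(FPKM + 0.1) for genes averaging 0.5 FPKM or more, other scaling, no filter, a replicate block and leaving out each sample. The edgeR fits with and without the replicate block, DESeq2 and limma on log values were tried on simulated data. The other alternatives were not. FPKM as deposited by the authors served for levels. CPM used TMM library sizes. Loci, transcripts and read sharing came from GENCODE M21 and promoters from RefSeq (GRCm38.p6). The members, lists and motifs were chosen with earlier results of these data known. Named were all members, other family genes with at least 10 counts in at least 3 samples, up to 4 called genes per list with the largest fold change, key receptors and hydrolases, and the 3 genes most like Cyp2c55 and like the most abundant member, among genes averaging 1 FPKM or more. Other names are said to be chosen later, Cyp2c40 and the marker genes named without a call among them.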

Additional observations from a re-analysis of the deposited data

How the results depend on the processing

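For the P450 genes themselves, no difference that was called changed sign under any alternative run. The number called higher, 4, ran from 2 to 6 with single samples left out. Other alternatives changed counts of called genes as follows. DESeq2 called 2 receptors and partners higher (1 in edgeR) and 1 lower (0), 5 receptor targets higher (2) and 1 lower (0), and 2 arachidonic acid genes higher (1) and 2 lower (0). Limma on log2(FPKM + 0.1), edgeR with no filter and edgeR with the replicate block each left 0 receptors and partners and 0 arachidonic acid genes called, and limma on log2(FPKM + 1) called 1 receptor target lower. Leaving out single samples gave 0 to 1 receptors and partners higher, 1 to 4 receptor targets higher, 0 to 2 arachidonic acid genes higher and 0 to 1 lower, and 0 to 1 other family genes lower. The median share of windows matching another gene was 0 at 150 bases, 5.37% at 100 and 19.5% at 50. In all, 91 of 122 alternative values for these counts and this median stayed close to the reported value. Most of these 91 were counts of 0 that stayed 0, and 6 P450 genes called against the reported 4 was also rated close. The total therefore says little about how stable the counts above 0 were. The samples of a replicate number share only that number: deviations from the group means correlated at -0.136, -0.0234 and 0.0363 within the numbers, and the replicate block changed no call on these lists other than Por and Cyp4f16. Relative to Vil1, log2 fold changes were 3.81 for Cyp2c55, 1.75 for Cyp3a11, 1.61 for Cyp3a25, 1.13 for Cyp2c66, 0.18 for Cyp3a13, 0.10 for Cyp2c65 and -0.86 for Cyp2c68. Apart from the fits with fewer samples or more genes, the cause of these shifts was not tested. Counts under about 50 limit Cyp2c29, Cyp3a44 and most other family genes.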

Other observations

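Markers of the secretory lineages were also measured. Of 6 Paneth cell genes, edgeR called none in either direction, with a median log2 fold change of -0.59, 1 lower at an unadjusted p under 0.05 and 1 lower with DESeq2. The Paneth sum ran from 3760 to 6500 CPM with vector and from 2340 to 4070 CPM with circEZH2_005, and the metalloprotease gene Mmp7 stood at 141 and 70.4 FPKM (edgeR adjusted p = 0.0692). Of 6 goblet cell genes, 1 was called higher by edgeR, against 2.69% of all genes, and none lower. It was the chloride channel accessory gene Clca1 (142 and 226 FPKM, log2 fold change 0.76, edgeR adjusted p = 0.0433). At an unadjusted p under 0.05, and also with DESeq2, 2 goblet genes were higher and 1 lower. The lower one, Agr2, stood at 403 and 303 FPKM (log2 fold change -0.33, edgeR adjusted p = 0.11), and the mucin gene Muc2 at 99.5 and 109 FPKM. Enteroendocrine and tuft cell sums overlapped between the groups, from 227 to 241 and from 215 to 231 CPM for the former and from 26.6 to 33.0 and from 25.7 to 30.3 CPM for the latter.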
